A study of Mus musculus with 24 samples.

Results

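Gene expression in the ventral tegmental area (VTA) at the start of the light phase was compared with that late in the dark phase. The 8 arrays compared are the 4 labelled ZT0 and the 4 labelled ZT20, of 24 arrays in all, and the description runs across 23410 of the 35556 probe sets on the array, those to which the array's annotation gives a gene (called transcripts here). Zeitgeber time (ZT) counts hours from lights on, so that ZT0 is lights on and ZT12 lights off. Each array holds RNA of 1 male C57BL/6N mouse of 10 to 12 weeks of age, kept in 12 h light and 12 h dark with standard chow and water ad libitum. All are labelled wild type (WT), no treatment is given, and by the labels the ZT0 mice and the ZT20 mice differ only in the time of sacrifice. The labels do not say whether the ZT0 mice had already seen light. Tissue was a punch of 0.5 mm diameter from a brain slice of 0.5 mm, which holds dopaminergic, GABAergic and glutamatergic neurons together with glia and vessels. Since whole punches were measured, fewer cells of a type and less RNA per cell cannot be told apart. The question is which transcripts differ across the change from night to day, when mice end their active phase.

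Several systems are known to change at this time of day in nocturnal rodents. Corticosterone, the main glucocorticoid of the mouse, peaks around the onset of darkness and is low in the morning. It acts through nuclear receptors that bind glucocorticoid elements near target genes. Body and brain temperature are higher in the active night than in the resting day, and heat shock and cold-inducible transcripts are known to respond to temperature. The molecular clock, in which CLOCK and BMAL1 drive the Per, Cry and Rev-erb genes that repress them in turn, runs in most brain cells with a phase that differs between regions.

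One of the 8 arrays stood apart. The array labelled ZT0 replicate 4 had a median correlation of 0.970 with the other arrays, against 0.989 to 0.993 for the remaining 23. In it, 327 transcripts fell short of the mean of ZT0 replicates 1 to 3 by more than 1 on the log2 scale, and 60 exceeded it by more than 1. Of the other 23 arrays, none had more than 16 below or 13 above the other arrays of its own time point. The 327 low transcripts were mostly well expressed: 86.9% had a mean over all arrays above the median transcript level of 6.76, against 50% of all transcripts. The lowest were Gsdme, Ptchd1, Hmgn5 and Taf1d, with differences from the other 3 arrays of -3.02, -2.96, -2.74 and -2.57. Of the 60 high transcripts, 51 were probe sets that match several genes. The differences of most named genes and the counts and medians of the main gene lists are therefore given with all arrays and without this array. List medians by level, after a further quantile normalization or against the rest of the day are given with all arrays only. A bare number in brackets after a difference is the same difference without ZT0 replicate 4.

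The arrays also differed in how far apart high and low levels lay. The 623 transcripts with a mean level above 10 had a median deviation from their 24-array mean of 0.11, -0.06, 0.13 and 0.10 on ZT0 arrays 1 to 4. On ZT20 arrays 1 to 4 the values were 0.00, -0.07, 0.01 and -0.22. ZT20 replicate 4 was the lowest of all 24 arrays in this respect and ZT0 replicate 3 the highest.

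**Figure D1:**
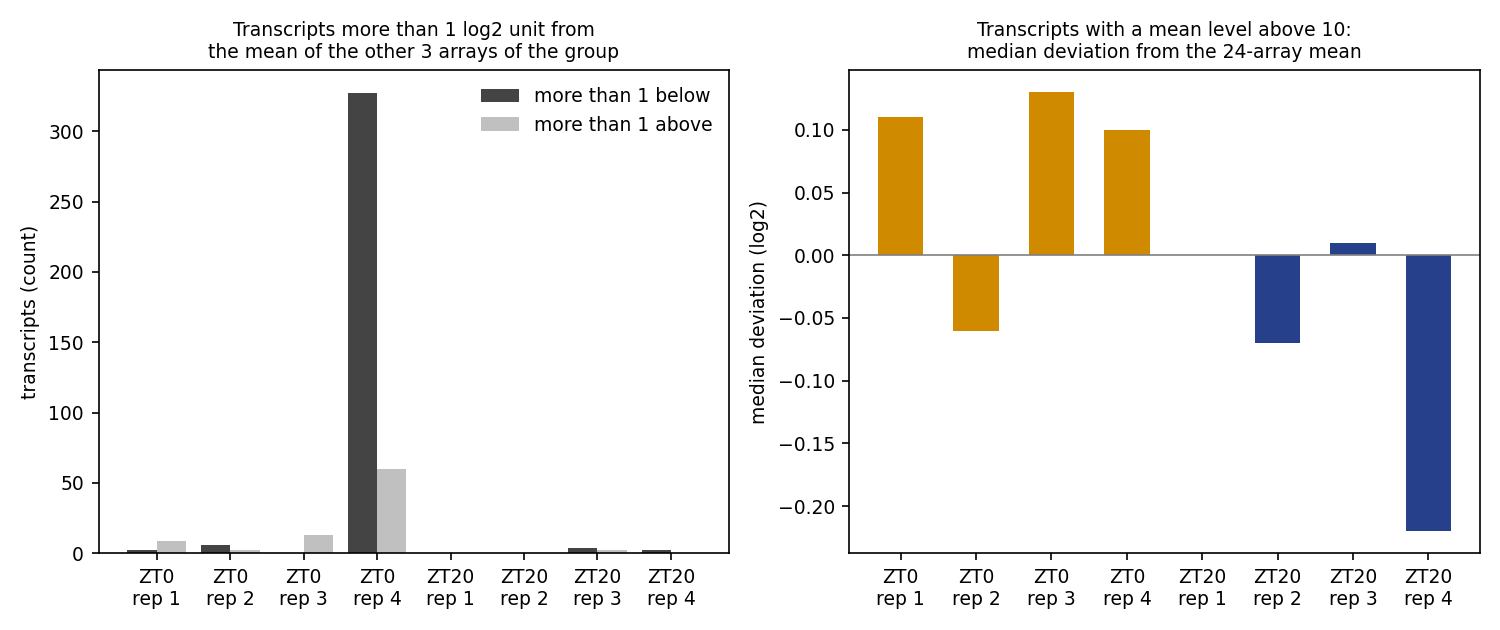
Left, for each ZT0 and ZT20 array, the number of transcripts that differ by more than 1 on the log2 scale from the mean of the remaining arrays of its time point, in either direction; ZT0 replicate 4 reaches 327 and 60. Right, median deviation (log2) of the 623 transcripts with a mean level above 10 from their mean over 24 arrays; the bars run between -0.22 in ZT20 replicate 4 and 0.13 in ZT0 replicate 3.

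Across all transcripts, no difference between ZT0 and ZT20 passed the test with all arrays. With limma, 0 of 23410 transcripts had a Benjamini-Hochberg adjusted p under 0.05, and the lowest adjusted p was 0.376. The difference was above 0 for 46.6% of transcripts, and for 42.6% without ZT0 replicate 4. At an unadjusted p under 0.05, 922 transcripts (3.94%) were higher and 1172 (5.01%) lower at ZT0, 8.94% in all. Without ZT0 replicate 4, 1 transcript passed, Fabp7 (0.00427%), and the unadjusted counts were 1791 higher (7.65%) and 1844 lower (7.88%). Without ZT0 replicate 2 instead, 17 transcripts passed. The sign of the difference was the same with and without ZT0 replicate 4 for 18992 transcripts (81.1%). All 4 ZT0 values lay above all 4 ZT20 values for 266 transcripts (1.14%) and below for 527 (2.25%), and without ZT0 replicate 4 these shares were 5.81% and 6.90%.

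The direction of a difference went with the level of a transcript. Of transcripts up to the median level, 38.9% were higher at ZT0, with a median difference of -0.03. Of the 3238 transcripts with a level from 8 to 10, 67.4% were higher, with a median of 0.05. Of the 623 above a level of 10, 91.8% were higher, with a median of 0.15, and 29.5% were higher at an unadjusted p under 0.05. The shares that were higher at these 3 levels were 31.3%, 70.9% and 81.9% without ZT0 replicate 4. After a further quantile normalization of the arrays, the share above a level of 10 that was higher was 42.9%, with a median of -0.02. Centring the arrays on their medians likewise moved the split of the calls at an unadjusted p under 0.05. In that fit 59.9% of its own calls were higher, against 44.0% of those made as deposited, and the median of all transcripts stood at 0.01. For the gene lists below, the values under this normalization or at transcripts of the same level are given for most of those with abundant members. They are not given for splicing factors and synaptic vesicle genes, whose members are abundant too. Lists and members were chosen with earlier results of these data known. Shares of a list beside all transcripts are thus descriptions and not tests.

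Glucocorticoid-responsive genes mostly read lower at ZT0. Of 17 measured members, 16 had a difference below 0, and their median was -0.13 on the log2 scale, against -0.01 for all transcripts. At an unadjusted p under 0.05, 7 were lower and 0 higher, which is 41.2% of the list against 5.01% of all transcripts. The list was chosen with earlier results of these data known, so this share is a description and no test of the list. The 7 were Sgk1, Zbtb16, Mt1, Nfkbia, Klf9 and, named after their values were seen, Mt2 and Sult1a1. None passed after adjustment over all transcripts. All 17 members were below 0 without ZT0 replicate 4, with a median of -0.14, and 6 were lower at an unadjusted p under 0.05 (7.88% of all transcripts). After the further quantile normalization the median was -0.12. The 9 members with a level above the median carried most of the difference: those between the median level and 8 had a median of -0.23 and the 2 above 8 had -0.24, against -0.01 and 0.05 for all transcripts at these levels. The sum of the members' linear levels ran between 2855 and 3043 on the ZT0 arrays and between 3210 and 3432 on the ZT20 arrays, without overlap. Abundant members weigh most in such a sum, here Mt2 and Mt1 with mean log2 levels of 9.85 and 8.92. It is thus not a measure of all members alike. Over all transcripts the sum ran between 4579000 and 4899000 at ZT0 and between 4378000 and 4724000 at ZT20.

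Sgk1, a kinase that regulates ion channels and transporters and is a direct target of the glucocorticoid receptor, gave the largest difference in the list. Its log2 level was 6.67, 6.94, 6.81 and 6.78 on the ZT0 arrays, against 6.86, 7.40, 7.47 and 7.25 on the ZT20 arrays. The 4 ZT0 values lay close together, and 1 of the ZT20 values, that of replicate 1, lay within their range, so that the groups overlapped. The difference was -0.45 ± 0.11 (SE), a fold of 0.734, with an adjusted p of 0.384 by limma, and -0.44 without ZT0 replicate 4. An exact two-sided permutation test of the 8 values gave p = 0.0571, where 0.0286 is the smallest that 4 arrays against 4 can give.

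The start region of 1 Sgk1 transcript is shown because it holds a match to the glucocorticoid element. It lies on the plus strand at chr10:21993640-21993939 in GRCm38.p6 (RefSeq), and the match is in capitals.
Sgk1: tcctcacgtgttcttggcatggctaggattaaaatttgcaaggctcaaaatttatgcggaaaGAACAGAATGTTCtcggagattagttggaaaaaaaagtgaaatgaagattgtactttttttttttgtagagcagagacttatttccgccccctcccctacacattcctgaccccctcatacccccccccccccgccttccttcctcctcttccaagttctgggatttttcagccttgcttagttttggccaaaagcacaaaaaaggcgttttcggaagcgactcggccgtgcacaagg
The motif searched was GNACA followed after 3 bases by TGTNC, on both strands. It began at position -188 from the start, and 0.475% of 32851 such promoters of the mouse genome held it. Of the 14 list members with a promoter in the table, which have 22 promoters among them, Sgk1 and Mt1 held it. A share of promoters and a count of genes are not directly comparable. Another motif searched, the E-box CACGTG, began at -246 in the same Sgk1 region and is left in lower case. It was in 7.15% of all promoters, and in Sgk1 and Fkbp5 among the list members. A match is a sequence description only, and receptor binding was not measured.

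Zbtb16, a zinc-finger transcription factor induced by glucocorticoids, had levels of 7.30, 7.18, 7.26 and 7.44 at ZT0, against 7.66, 7.52, 7.55 and 7.55 at ZT20. All ZT0 values were below all ZT20 values. The difference was -0.28 with all arrays and -0.32 without ZT0 replicate 4 (adjusted p of 0.400 and 0.0848, limma). Klf9, a Kruppel-like factor with the same kind of induction, read 7.03, 7.07, 7.10 and 6.92 at ZT0, against 7.30, 7.23, 7.11 and 7.40 at ZT20, again without overlap though by a narrow margin, with a difference of -0.23 (-0.19). Nfkbia, the inhibitor of NF-kappaB, read 6.33, 6.64, 6.72 and 6.69 at ZT0, against 6.70, 6.92, 7.05 and 6.79 at ZT20. Here the groups overlapped by 1 pair of values, and the difference was -0.27 (-0.30). The metallothioneins, which bind zinc and copper, had differences of -0.24 (-0.18) for Mt1 and -0.24 (-0.19) for Mt2. Sult1a1 differed by -0.21 (-0.15). Other members differed less. Fkbp5, the co-chaperone that restrains the receptor, differed by -0.06 (-0.09) and Tsc22d3, known as GILZ, by -0.10 (-0.08).

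**Figure D2:**
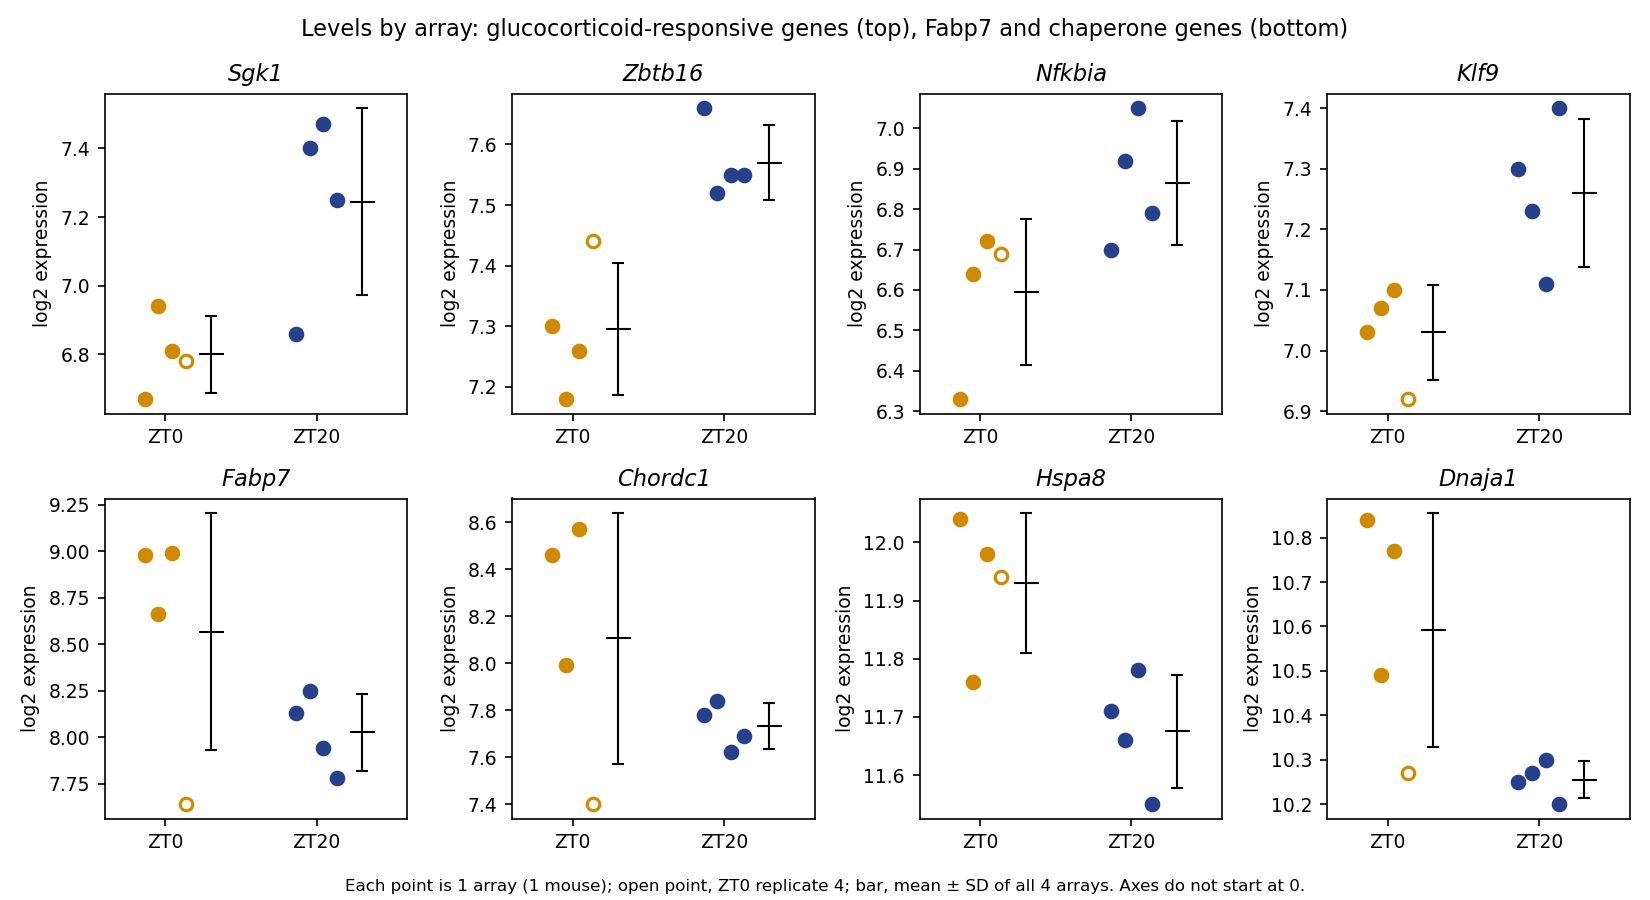
Log2 level of 8 genes on each ZT0 array (orange, left; the open point is ZT0 replicate 4) and each ZT20 array (blue, right), with the mean and SD of 4 arrays. Sgk1, Zbtb16, Nfkbia and Klf9 (top) have lower means at ZT0; for Fabp7 and Chordc1 (bottom) 3 ZT0 arrays lie above all ZT20 arrays and ZT0 replicate 4 lies below them.

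Heat shock proteins and their co-chaperones, which fold and refold proteins, were mostly higher at ZT0. Of 18 measured members, 16 were above 0, with a median of 0.15, and 7 were higher and 0 lower at an unadjusted p under 0.05 (3.94% of all transcripts higher). The median was 0.23 without ZT0 replicate 4, and 10 members were higher, against 7.65% of all transcripts. On ZT0 replicate 4 itself the members had a median 0.27 below the other 3 ZT0 arrays. None passed after adjustment in either fit. The 5 members above a level of 10 had a median of 0.26, against 0.15 for all transcripts at that level, and the 7 members from 8 to 10 had 0.13, against 0.05. After the further quantile normalization 15 of 18 were above 0, with a median of 0.08, and 2 reached an unadjusted p under 0.05.

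Chordc1, a co-chaperone of HSP90, had the largest difference of the list without ZT0 replicate 4. Its levels were 8.46, 7.99, 8.57 and 7.40 on the ZT0 arrays and 7.78, 7.84, 7.62 and 7.69 on the ZT20 arrays. Replicates 1 to 3 at ZT0 were above every ZT20 array, and replicate 4 was below every one. The difference was 0.37 with all arrays (adjusted p 0.512) and 0.61 without this array (adjusted p 0.0717, limma). With array weights on all arrays it passed, at 0.63 with an adjusted p of 0.0458. Hspa8, the constitutive HSC70, did not rest on this array: it read 12.04, 11.76, 11.98 and 11.94 at ZT0, against 11.71, 11.66, 11.78 and 11.55 at ZT20, a difference of 0.26 with and 0.25 without ZT0 replicate 4. Its 3 probe sets gave 0.21, 0.20 and 0.26, and after the further quantile normalization the one with the highest level gave 0.09. Dnaja1, an HSP40 co-chaperone, read 10.84, 10.49, 10.77 and 10.27 at ZT0, against 10.25, 10.27, 10.30 and 10.20 at ZT20 (0.34 with and 0.45 without replicate 4). Stip1, which links HSP70 to HSP90, differed by 0.22 (0.23). Hspe1, the mitochondrial HSP10, was picked after its values were seen: it read 11.51, 11.16, 11.39 and 10.64 at ZT0, against 10.85, 10.84, 10.98 and 10.82 at ZT20, a difference of 0.31 (0.49). Hspb1, a small heat shock protein, and Cacybp were the 2 members below 0 with all arrays, at -0.14 (-0.15) and -0.09 (0.06).

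Start regions of 2 chaperone genes are shown because they hold matches to the heat shock element, a motif that was also chosen after the values were seen. Both lie on the plus strand of GRCm38.p6 (RefSeq), Chordc1 at chr9:18292017-18292316 and Hspe1 at chr1:55087898-55088197, and the matches, which overlap within each gene, are in capitals.
Chordc1: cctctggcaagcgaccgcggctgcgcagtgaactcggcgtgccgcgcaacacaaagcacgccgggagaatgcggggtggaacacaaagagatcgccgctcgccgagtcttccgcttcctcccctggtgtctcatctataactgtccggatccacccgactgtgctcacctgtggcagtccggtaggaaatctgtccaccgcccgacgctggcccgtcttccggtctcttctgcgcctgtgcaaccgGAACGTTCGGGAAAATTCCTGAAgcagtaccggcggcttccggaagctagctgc
Hspe1: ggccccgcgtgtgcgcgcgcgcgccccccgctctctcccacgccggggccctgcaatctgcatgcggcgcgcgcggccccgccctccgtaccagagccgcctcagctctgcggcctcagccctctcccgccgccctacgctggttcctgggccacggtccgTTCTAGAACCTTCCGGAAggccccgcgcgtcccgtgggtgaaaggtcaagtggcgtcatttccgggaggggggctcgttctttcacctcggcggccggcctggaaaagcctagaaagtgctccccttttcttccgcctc
The motif searched was TTC, GAA and TTC with 2 bases between each, on both strands. It was found in 4 of the 15 list members with a promoter in the table (Chordc1, Hspd1, Hspe1 and Hsph1) and in 0.603% of all 32851 promoters. The first is a count of genes, which have 20 promoters among them, and the second a share of promoters, so that they are not directly comparable. Binding of heat shock factor was not measured.

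Fabp7, a fatty acid binding protein of astrocytes and radial glia whose transcript is known for a daily rhythm in brain, was the only transcript to pass the test without ZT0 replicate 4, and did not pass with all arrays in equal weight. With array weights on all arrays it was among the 9 transcripts that passed, at 0.79 with an adjusted p of 0.0253. Its levels were 8.98, 8.66, 8.99 and 7.64 on the ZT0 arrays, against 8.13, 8.25, 7.94 and 7.78 on the ZT20 arrays. The first 3 ZT0 arrays were above all ZT20 arrays, whereas replicate 4 was the lowest of the 8. With all arrays the difference was 0.54 ± 0.19 (SE) with an adjusted p of 0.448. Without replicate 4 Fabp7 rose by 0.85 ± 0.13 (SE), 1.8-fold, with an adjusted p of 0.0142 by limma. This call did not hold when 1 more array was left out in 3 cases. The adjusted p was 0.130 for ZT0 replicate 1, 0.183 for ZT0 replicate 3 and 0.152 for ZT20 replicate 4. Nor did it hold when all probe sets were tested, those without a gene included (adjusted p 0.15, limma). The other astrocyte markers did not move together. Of 14 measured, 8 were above 0 with a median of 0.07 (-0.01 after the further quantile normalization), and 2 (14.3%, against 3.94% of all transcripts) were higher at an unadjusted p under 0.05, Fabp7 and Aldoc. The median was 0.03 without ZT0 replicate 4, and 3 were higher (21.4%, against 7.65%), with Gja1, the gap junction protein connexin 43, at 0.23 added. Gja1 and the other members outside the rule for named genes were picked after their values were seen. Aldoc, the brain aldolase, read 11.22, 11.14, 11.30 and 11.39 at ZT0, against 10.93, 10.95, 11.21 and 10.76 at ZT20, a difference of 0.30 (0.26). S100b differed by 0.18 (0.21) and Mlc1 by -0.14 (-0.06).

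Among transcripts of 1 gene above the median level, those with the smallest p were of mixed function. On the higher side, Cox6c, a subunit of cytochrome c oxidase, read 10.22, 10.14, 10.31 and 10.07 at ZT0, against 9.87, 9.76, 9.85 and 9.82 at ZT20. All ZT0 values lay above all ZT20 values, and the difference was 0.36 with and 0.39 without ZT0 replicate 4 (adjusted p 0.384 and 0.0763). It was 0.19 after the further quantile normalization. The other probe set of Cox6c gave 0.23 (0.24). Skp1, a core subunit of SCF ubiquitin ligases, read 10.36, 9.91, 10.46 and 9.87 at ZT0, against 9.75, 9.72, 9.73 and 9.70 at ZT20, with ZT0 replicates 1 and 3 well above the rest and a difference of 0.42 (0.52). With array weights it passed, at an adjusted p of 0.0253. Scoc, a Golgi protein, differed by 0.46 (0.48) on 1 probe set and by 0.11 (0.12) on its other one, and passed on the first without ZT0 replicate 2 (adjusted p 0.0384). A probe set named Rpl5, a ribosomal protein, had the lowest p of all: it read 8.15, 7.89, 8.17 and 8.02 at ZT0, against 7.51, 7.55, 7.57 and 7.34 at ZT20. The other 4 probe sets of Rpl5, all at a higher level, gave 0.24 to 0.26, and ribosomal protein genes have many near-identical copies, so that the value of 0.57 (0.58) may not be that of Rpl5 itself. This probe set passed without ZT0 replicate 2 (adjusted p 0.0384) and with array weights (0.0293). Hk1, hexokinase 1, differed by 0.61 (0.57) on 1 probe set and by -0.02 (-0.10) on its other one, and 1 of 20 probe sets of Myo18b gave 0.59 (0.43) where the remainder lay between -0.27 and 0.28. Fam32a and D230025D16Rik differed by 0.26 (0.24) and 0.30 (0.25).

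On the lower side, the 8 leading transcripts included Sgk1 and Zbtb16 of the glucocorticoid list, given above, and Myh11 of the mural markers, given below. The other leading ones were of mixed function. Plxnc1, a semaphorin receptor, read 6.60, 6.57, 6.56 and 6.45 at ZT0, against 6.96, 6.83, 6.91 and 7.04 at ZT20, a difference of -0.39 with and -0.36 without ZT0 replicate 4 (adjusted p 0.384 and 0.112). The groups did not overlap. Maml2, a coactivator of Notch, differed by -0.28 with and -0.32 without ZT0 replicate 4, and Tst, a mitochondrial sulfurtransferase, by -0.35 and -0.31. Zfyve21 and Myod1, the muscle transcription factor, differed by -0.35 (-0.38) and -0.28 (-0.27). Slc7a5, an amino acid transporter of the blood-brain barrier, is a gene fixed beforehand and not among the 8. It differed by -0.17 (-0.19).

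Genes of mitochondrial respiration mostly read higher at ZT0 in the values as deposited, and less so after the further quantile normalization. Of 73 subunits of oxidative phosphorylation, 67 were above 0, with a median of 0.15, and 19 were higher (26.0%, against 3.94% of all transcripts) and 1 lower (1.37%, against 5.01%) at an unadjusted p under 0.05. The median was 0.17 without ZT0 replicate 4, and 34 were higher (46.6%, against 7.65%). None passed after adjustment. The 18 subunits above a level of 10 had a median of 0.18, against 0.15 for all transcripts above 10, and the 42 from 8 to 10 had 0.13, against 0.05. After the further quantile normalization 51 were above 0, with a median of 0.05, and 6 were higher. Cycs, cytochrome c, read 10.58, 10.06, 10.54 and 10.23 at ZT0, against 10.08, 9.88, 9.96 and 9.87 at ZT20, and its 3 probe sets gave 0.31 to 0.40 (0.39 to 0.45 without ZT0 replicate 4). Cox4i1 read 10.52, 10.50, 10.52 and 10.52 at ZT0, against 10.25, 10.26, 10.34 and 9.89 at ZT20, so that every ZT0 array was above every ZT20 array, with a difference of 0.33 (0.33). Atp5h differed by 0.32 (0.35). Uqcr11 went the other way, by -0.56 (-0.41) on 1 probe set and -0.09 (-0.10) on its other one.

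Ribosomal protein genes had no direction that held under both scalings. Of 55 measured, 46 were above 0 with a median of 0.09 and 7 were higher at an unadjusted p under 0.05 (12.7%, against 3.94% of all transcripts), whereas after the further quantile normalization 19 were above 0, with a median of -0.04. The median was 0.08 without ZT0 replicate 4, and 15 were higher (27.3%, against 7.65%). Rpl24 differed by 0.37 (0.46), Rpl9 by 0.24 (0.21) and Rpl21 by 0.30 (0.17). Proteasome subunits had a median of 0.11 (0.05 after the further quantile normalization), with 2 of 31 higher at an unadjusted p under 0.05 (6.45%, near the 3.94% of all transcripts). Leaving out ZT0 replicate 4, the median was 0.14 and 12 were higher (38.7%, against 7.65%). On that array they had a median of -0.22 relative to the other ZT0 arrays. The leading ones were Psmc1 at 0.23 (0.26), Psmc5 at 0.17 (0.20), Psma3 at 0.25 (0.41) and Psmb3 at 0.14 (0.13). Splicing factors had a median of 0.06, with 2 of 25 higher (8%, against 3.94%) and 1 lower (4%, against 5.01%). Their median was 0.17 without ZT0 replicate 4, with 11 higher (44.0%, against 7.65%) and 0 lower, and on that array they had a median of -0.40 relative to the other ZT0 arrays. Srsf9 differed by -0.30 (-0.20), Hnrnph2 by 0.22 (0.22), Hnrnpdl by 0.20 (0.30) and Srsf3 by 0.14 (0.11). The other probe set of Hnrnph2 gave 0.10 (0.17). Glycolysis genes had a median of 0.11 with all arrays, with 3 of 15 higher (20%, against 3.94%). It was 0.01 without ZT0 replicate 4, with 3 higher (20%, against 7.65%) and 3 lower (20%, against 7.88%). After the further quantile normalization it was 0.01 as well. Pgk1 gave 0.22 (0.25) and Pgam1 0.15 (0.10), though another probe set of Pgam1 gave 0.02 (-0.08). Genes of synaptic vesicles had a median of 0.07, with 4 of 32 higher (12.5%, against 3.94%) and 1 lower (3.12%, against 5.01%), and of 0.05 without ZT0 replicate 4, with 3 higher (9.38%, near the 7.65% of all transcripts) and 0 lower. Among them were Sv2a at 0.22 (0.22), Sv2c at 0.25 (0.28), Sypl at 0.20 (0.23) and Rims2 at -0.25 (-0.08).

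Genes of cholesterol synthesis mostly read higher at ZT0, by a like amount as deposited and after the further quantile normalization. Of 20 measured, 17 were above 0, with a median of 0.11 in both fits and 0.10 after the further quantile normalization, and in both fits 4 were higher (20%, against 3.94% of all transcripts, or 7.65% without ZT0 replicate 4) and 1 lower (5%, the share of all transcripts being 5.01%) at an unadjusted p under 0.05. Idi1, which makes dimethylallyl diphosphate, read 7.04, 6.91, 6.80 and 6.54 at ZT0, against 6.57, 6.52, 6.50 and 6.60 at ZT20, where the groups overlapped through ZT0 replicate 4 alone (0.27 with and 0.37 without it). Sqle, squalene epoxidase, read 8.25, 8.18, 8.17 and 8.29 at ZT0, against 8.09, 8.0, 8.08 and 8.03 at ZT20, without overlap, a difference of 0.17 (0.15). Msmo1, a sterol demethylase, differed by 0.23 (0.22) and Tm7sf2, a sterol reductase, by -0.15 (-0.16). None passed after adjustment. Chaperones of the endoplasmic reticulum had no common direction with all arrays: 10 of 20 were above 0, with a median of 0.01. Of these 20, 3 were higher (15.0%, against 3.94%) and 1 lower (5%, against 5.01%). Leaving out ZT0 replicate 4, the median was 0.07, and 7 were higher (35.0%, against 7.65%) and 1 lower (5%, against 7.88%). Calr differed by 0.20 (0.19), Hspa5 by 0.18 (0.21), the transcription factor Atf4 by 0.18 (0.21) and Hyou1 by -0.16 (-0.22).

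**Figure D3:**
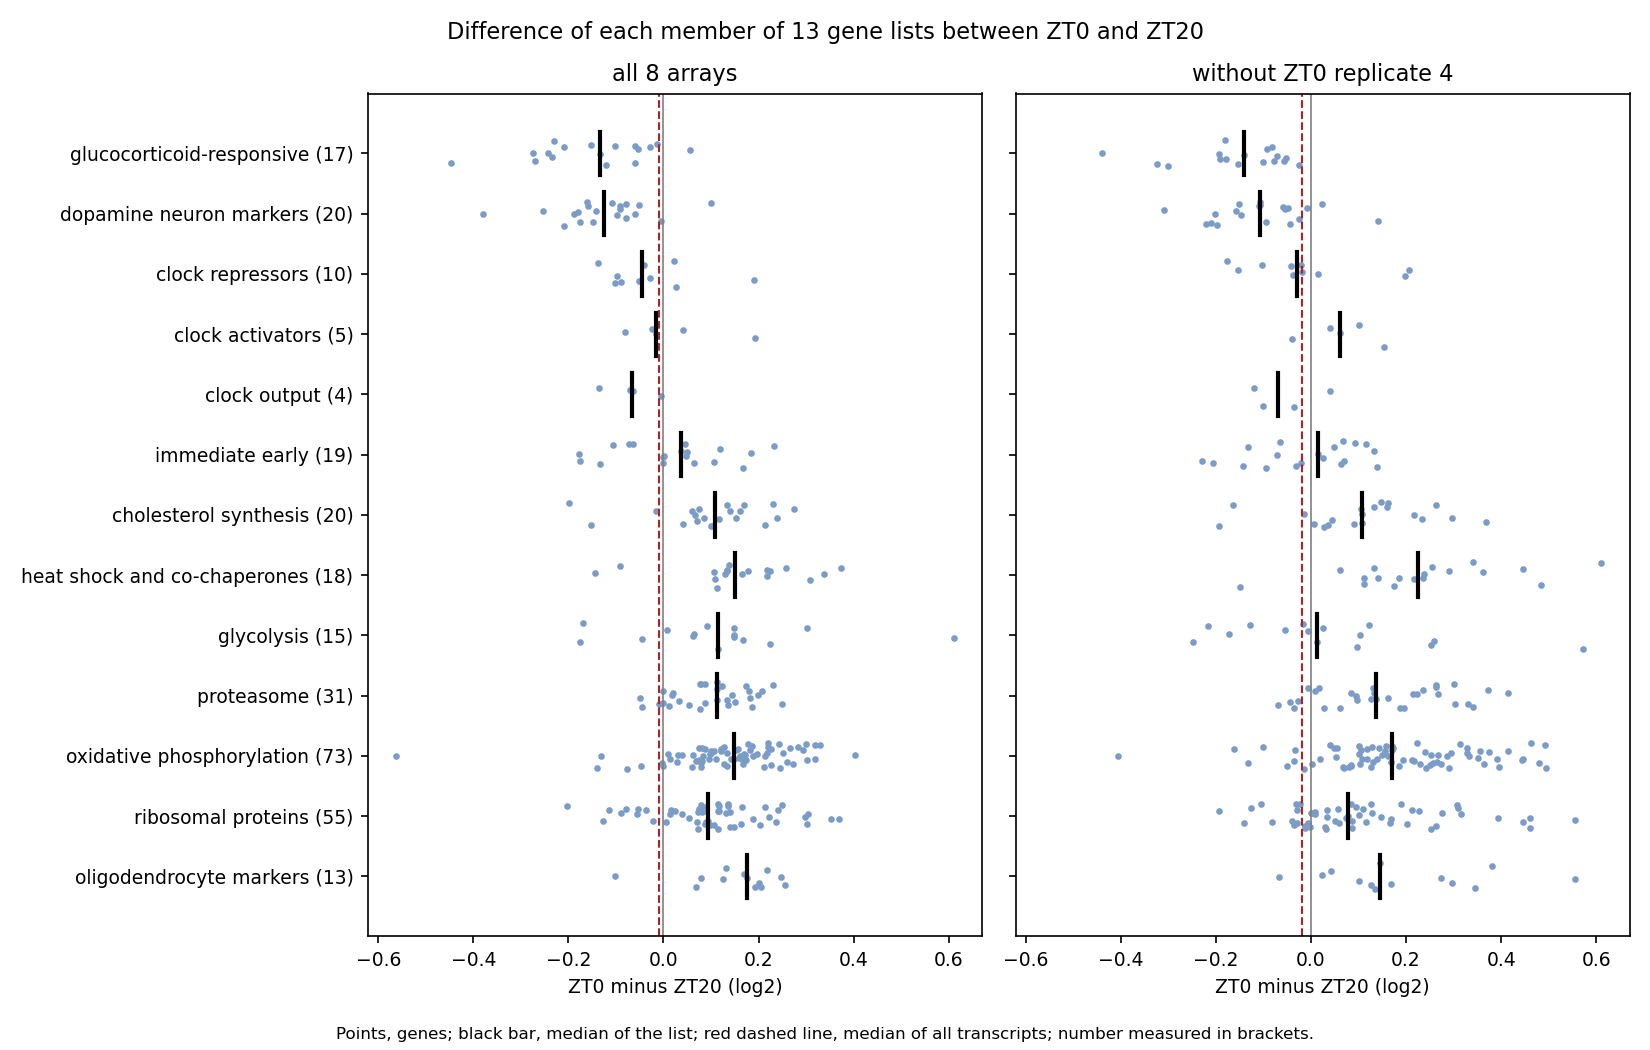
Difference ZT0 minus ZT20 (log2) of each measured gene of 13 lists (points) with the list's median (black bar), with all arrays (left) and without ZT0 replicate 4 (right); the dashed line is the median of all transcripts (-0.01 and -0.02). The glucocorticoid-responsive genes and dopamine neuron markers lie to the left, with medians of -0.13 and -0.12 in the left panel, and the heat shock genes to the right, with 0.15 and 0.23 in the 2 panels.

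Clock genes differed little between the 2 time points. Of 19 measured, 1 stood at an unadjusted p under 0.05 with all arrays, Arntl, which encodes BMAL1, against 8.94% of all transcripts. With ZT0 replicate 4 left out, Arntl no longer did and Per3 did, against 15.5% of all transcripts. Arntl read 6.93, 7.07, 7.05 and 7.17 at ZT0, against 6.98, 6.77, 6.95 and 6.74 at ZT20, a difference of 0.19 ± 0.07 (SE) with an adjusted p of 0.461 (limma), and 0.15 without ZT0 replicate 4. Among the repressors, Per3 differed by -0.14 (-0.18), Cry2 by -0.10 (-0.10), Per2 by -0.10 (-0.15) and Cry1 by -0.09 (-0.04). Per1, Nr1d1, Nr1d2 and Bhlhe40 lay between -0.04 and 0.03, and between -0.04 and 0.01 without ZT0 replicate 4. Bhlhe41, which encodes DEC2, read 7.61, 7.40, 7.51 and 6.52 at ZT0, against 7.30, 7.30, 7.27 and 7.36 at ZT20, and its difference of -0.05 was 0.20 without ZT0 replicate 4. Ciart differed by 0.19 (0.21) on 1 probe set and by -0.20 (-0.11) on its other one. Rora, Rorb, Clock and Nfil3 lay between -0.08 and 0.04, and between -0.04 and 0.10 without ZT0 replicate 4. Among the output genes, which encode the PAR bZIP factors and a deubiquitinase, Dbp differed by -0.14 (-0.12), Usp2 by -0.07 (-0.10), Hlf by -0.06 (0.04) and Tef by -0.01 (-0.04). The SE of these differences with all arrays was between 0.065 and 0.162.

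Immediate early genes, which rise within minutes of neuronal activity, had no common direction. Of 19 measured, 11 were above 0, with a median of 0.04, and 1 was higher and 1 lower at an unadjusted p under 0.05 (5.26% each, near the 3.94% and 5.01% of all transcripts). Leaving out ZT0 replicate 4, the median was 0.01, and 0 were higher and 2 lower (10.5%, against 7.88%), Egr4 and Egr1. With all arrays the 2 were Junb, at 6.01, 5.96, 5.93 and 6.17 at ZT0, against 5.87, 5.76, 5.85 and 5.85 at ZT20, a difference of 0.18 (0.13), and Egr4, with -0.18 (-0.21). Fosb read 6.39, 6.56, 6.60 and 7.25 at ZT0, against 6.48, 6.40, 6.52 and 6.48 at ZT20, and its difference of 0.23 was 0.05 without ZT0 replicate 4. Egr1 differed by -0.18 (-0.23). The cold-inducible RNA binding proteins were close to 0: Cirbp read 6.95, 6.95, 7.07 and 7.04 at ZT0, against 6.87, 6.93, 7.03 and 6.96 at ZT20, a difference of 0.06 (0.04), and Rbm3 differed by -0.13 (-0.13).

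Markers of dopamine neurons, the cell type for which the VTA is known, were at lower levels at ZT0 in most members. None passed adjustment in either fit, and the list as a set was not tested. Of 20 measured, 19 were below 0, with a median of -0.12 (-0.13 after the further quantile normalization), 2 of them at an unadjusted p under 0.05 (10.0%, against 5.01% of all transcripts). With ZT0 replicate 4 left out, 18 were below 0, with a median of -0.11, and 2 at that threshold (against 7.88%). By level, with all arrays, the 8 markers up to the median level had a median of -0.16 and the 8 between it and 8 had -0.08. The 4 from 8 to 10 had -0.22. All transcripts at these levels had -0.03, -0.01 and 0.05. The sum of their linear levels was between 3233 and 3964 at ZT0, the lowest being ZT0 replicate 4, and between 3527 and 4371 at ZT20, with overlap. Slc6a3, the dopamine transporter, read 8.01, 8.40, 8.70 and 8.09 at ZT0, against 8.53, 9.18, 8.62 and 8.40 at ZT20. Th, tyrosine hydroxylase, read 7.51, 7.90, 7.90 and 7.55 at ZT0, against 7.88, 8.21, 7.77 and 7.59 at ZT20. Both overlapped widely, and the differences of -0.38 ± 0.20 and -0.15 ± 0.14 (SE) had adjusted p of 0.585 and 0.795 (limma). They were -0.31 and -0.10 without ZT0 replicate 4. Drd2 differed by -0.18 (-0.15), Ddc by -0.25 (-0.15) and Ntsr1 by -0.16 (-0.22). How much of each punch was VTA was not tested.

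Markers of other cell types in the punch had no member that passed adjustment in either fit, other than Fabp7 without ZT0 replicate 4. Of 13 oligodendrocyte markers, 12 were above 0, with a median of 0.18 (0.06 after the further quantile normalization), and 4 were higher at an unadjusted p under 0.05 (30.8%, against 3.94% of all transcripts). Leaving out ZT0 replicate 4, the median was 0.14 and 6 were higher (46.2%, against 7.65%). Their summed linear level was 8011 to 9089 at ZT0, against 7144 to 7826 at ZT20, without overlap. Abundant members weigh most in this sum too, Mobp having the highest mean log2 level, 10.72. Ugt8a, which makes myelin galactolipids, differed by 0.25 (0.38), Mog by 0.20 (0.17), Mobp by 0.17 (0.14) and Opalin by 0.26 (0.30). The 10 members from a level of 8 to 10 had a median of 0.15, against 0.05 for all transcripts at that level. Genes of cholesterol synthesis are active in oligodendrocytes, and the part of these cells in the differences of that list or of the respiratory genes was not tested. Of 14 microglial markers, 0 reached an unadjusted p under 0.05 with all arrays, with a median of 0.09, and 3 were higher without ZT0 replicate 4 (21.4%, against 7.65%), with a median of 0.10. Of 8 mural markers, which mark smooth muscle and pericytes, 2 were lower at that threshold with all arrays, Myh11 and Acta2 (25%, against 5.01%). Leaving out ZT0 replicate 4, 1 was lower, Myh11, and 1 higher, Rgs5 (12.5% each, against 7.88% and 7.65%). Myh11, smooth muscle myosin, read 7.07, 7.22, 7.25 and 7.13 at ZT0, against 7.46, 7.46, 7.55 and 7.42 at ZT20, without overlap, a difference of -0.31 with and -0.29 without ZT0 replicate 4 (adjusted p 0.384 and 0.132). Acta2 differed by -0.36 (-0.30), Tagln by -0.20 (-0.24), Kcnj8 by 0.15 (0.14) and Rgs5 by 0.11 (0.25). A further 13 lists, of other neurons, neighbouring regions, endothelium, ependyma, meninges, oligodendrocyte precursors, hypoxia, insulin signalling and MAP kinase feedback, had medians from -0.10 to 0.04, and from -0.12 to 0.03 without ZT0 replicate 4. With all arrays 0 members were higher and 4 lower at that threshold, each in a list of its own, where 3.94% of all transcripts were higher and 5.01% lower. Without that array 3 were higher and 4 lower, where 7.65% and 7.88% of all transcripts were. These lists held from 2 to 14 measured members each, and so few calls are not read as a result about them. Among the lower ones were Gata3 at -0.33 (-0.30) and Pou4f1 at -0.24 (-0.27), transcription factors of GABAergic and habenular or red nucleus neurons. Pou4f1 was at a low mean level of 4.74.

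Of 8 globin probe sets, whose transcripts come from red blood cells, the 4 that match several genes read lower at ZT0. The 4 of 1 gene lay near 0 with all arrays, but at lower levels. Their mean log2 levels were 4.98 to 7.26, against 8.98 to 9.38 for those of several genes. Those of 1 gene read -0.06 for alpha-globin and -0.09, 0.03 and 0.06 for beta-globin, with adjusted p of 0.896 or more (limma). Without ZT0 replicate 4 they read -0.14, -0.22, -0.04 and -0.08. The pair of probe sets that match several alpha-globin genes read 8.44 to 9.04 and 8.39 to 9.06 at ZT0, against 9.19 to 9.91 and 9.13 to 9.83 at ZT20, without overlap in either. The differences were -0.86 and -0.81, and -0.90 and -0.83 without ZT0 replicate 4 (adjusted p 0.384 for both with all arrays and 0.0857 and 0.112 without it). The pair that match several beta-globin genes gave -0.54 (-0.62) and -0.55 (-0.65), with overlap. Alas2, which makes heme in red cells, differed by -0.19 (-0.20), and Slc4a1, the red cell anion exchanger, by 0.03 (-0.03). Mt1, Mt2, Sgk1 and Nfkbia are expressed in vessels too, and the part of blood and vessel content in the glucocorticoid list was not tested.

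When each time point was set against the mean of ZT4, ZT8, ZT12 and ZT16, again nothing passed adjustment. At an unadjusted p under 0.05, 1569 transcripts (6.70%) departed from that mean at ZT0, 2154 (9.20%) without ZT0 replicate 4 and 2528 without ZT0 replicate 2, against 1220 (5.21%) at ZT20. The glucocorticoid list had a median of -0.12 at ZT0 against the rest of the day and of 0.01 at ZT20. For the heat shock list the medians were 0.13 and -0.05, and for the oxidative phosphorylation list 0.03 and -0.11. Cold-inducible genes were below the rest of the day at both, at -0.27 and -0.23.

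The change from night to day was then compared with that from day to night, as the difference ZT0 minus ZT20 less the difference ZT12 minus ZT8, which share no arrays. Sgk1 was the only transcript to pass with all arrays (1 of 23410, 0.00427%). Without ZT0 replicate 4, Sgk1 and Fabp7 passed (0.00854%). At an unadjusted p under 0.05 stood 7.96% of transcripts with all arrays, 10.9% without ZT0 replicate 4, and 3.5% for the change to darkness alone. The level of Sgk1 was 6.80 ± 0.11 at ZT0, 6.74 ± 0.14 at ZT4, 6.95 ± 0.15 at ZT8, 7.56 ± 0.14 at ZT12, 7.18 ± 0.15 at ZT16 and 7.25 ± 0.27 at ZT20 (SD, n = 4 arrays each). It was thus highest at lights off and low from ZT0 to ZT8. The difference was -0.45 across the change to light and 0.61 across the change to darkness, so that the contrast was -1.05 with an adjusted p of 0.00994, and -1.05 with 0.00811 without ZT0 replicate 4 (limma). With any 1 of the 24 arrays left out the adjusted p stayed between 0.000191 and 0.0490. The call was lost when all probe sets were tested, those without a gene included (adjusted p 0.0775, limma).

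The next 3 transcripts, named for the smallest p, went the same way. Plekhf1, an endosomal protein with a PH and a FYVE domain, was at 6.93 ± 0.10 at ZT0, 6.87 ± 0.19 at ZT8, 7.36 ± 0.14 at ZT12 and 7.24 ± 0.17 at ZT20 (SD), a contrast of -0.81 with an adjusted p of 0.0804, and -0.83 with 0.0508 without ZT0 replicate 4. Etnppl, an astrocyte enzyme that breaks down phosphoethanolamine, was at 8.14 ± 0.08, 8.04 ± 0.20, 8.52 ± 0.19 and 8.46 ± 0.13 at the same times, a contrast of -0.80 with an adjusted p of 0.0844, and -0.78 with 0.117 without that array. Psg23, a low transcript with a mean of at most 5.10 at each time, had -0.71 with an adjusted p of 0.244, and -0.68 with 0.180. Fabp7 ran opposite. It was at 8.83 ± 0.06 at ZT4, 8.55 ± 0.10 at ZT8, 8.25 ± 0.22 at ZT12, 7.73 ± 0.30 at ZT16 and 8.03 ± 0.21 at ZT20 (SD), and at 8.57 ± 0.64 at ZT0, or 8.88 ± 0.19 without replicate 4 (n = 3). Its contrast was 0.84 with an adjusted p of 0.469, and 1.15 with 0.00811 without that array. That call was lost without ZT0 replicate 1 (0.0533) or ZT0 replicate 3 (0.0720) as well, and when all probe sets were tested (0.145). Of the single arrays left out, 5 gave 2 transcripts in place of 1 (ZT4 replicate 4, ZT8 replicate 2, ZT12 replicate 4, ZT16 replicate 3 and ZT0 replicate 4), and ZT20 replicate 1 gave 3.

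**Figure D4:**
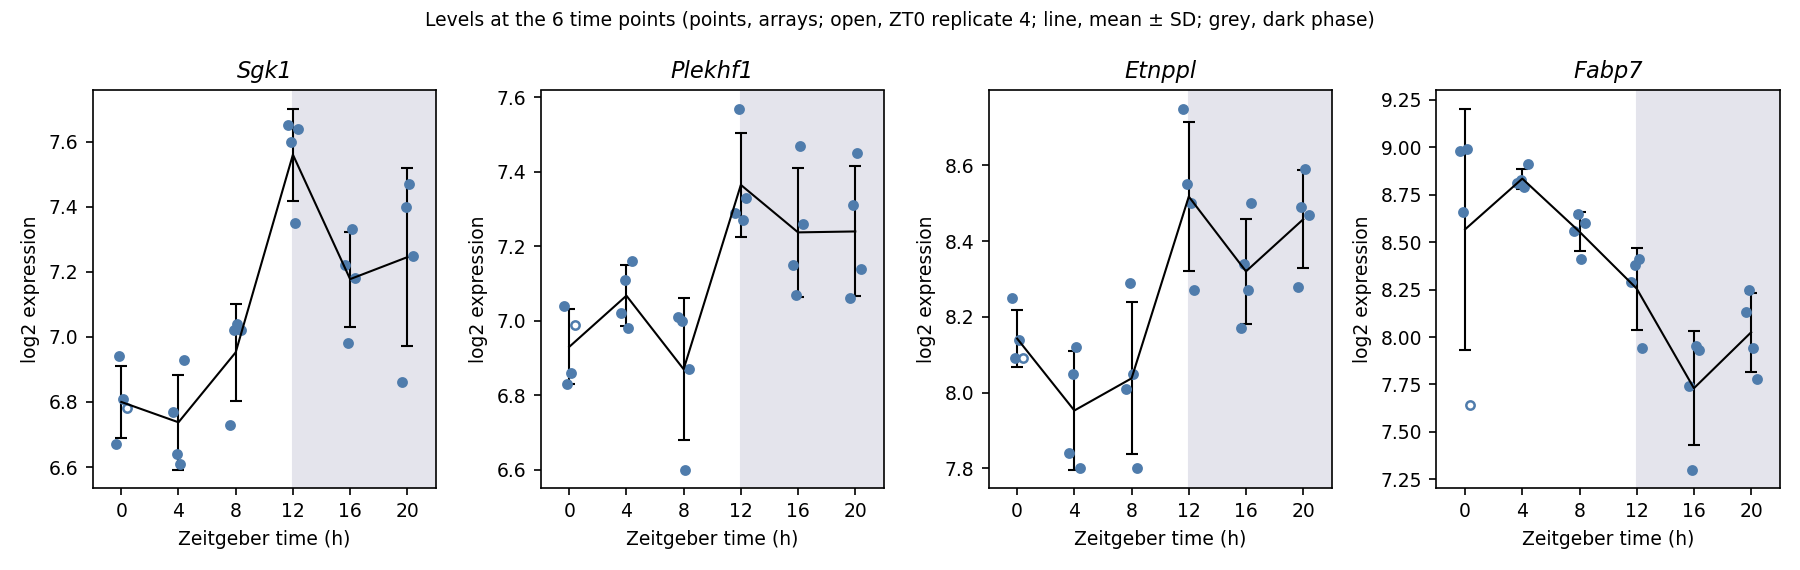
Log2 level of Sgk1, Plekhf1, Etnppl and Fabp7 on each of the 24 arrays against Zeitgeber time (h), with the mean and SD of 4 arrays; the dark phase is shaded and the open point is ZT0 replicate 4. Sgk1 is highest at ZT12 (7.56) and lowest at ZT4 (6.74), and Fabp7 is highest at ZT4 (8.83) and lowest at ZT16 (7.73).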

How the data were processed

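The series holds 24 arrays (Mouse Gene 1.0 ST), 1 for each of 4 mice at 6 time points. The labels give intervals of 4 h, whereas the methods of the study state other intervals. The labels were followed. The authors deposited 1 table of log2 values made with RMA in R 2.13.1, per the submitters' processing notes. The genome build is not given in the sources used here. A further normalization to the average of each gene, which the study's methods name, is not in these values. Gene names came from the platform annotation, with 21698 probe sets matched to the RefSeq gene table of GRCm38.p6. Of 35556 probe sets, 21789 have 1 gene, 1621 several and 12146 none. A gene in a list is represented by its probe set of 1 gene with the highest mean.

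All 24 arrays were fitted with limma 3.58.1 in R 4.3.3 with the 6 time points as groups, and the difference ZT0 minus ZT20 was tested with Benjamini-Hochberg adjustment over 23410 transcripts at 0.05. The fit was repeated without ZT0 replicate 4. Further contrasts set ZT0 and ZT20 against the mean of the other 4 time points, and the change to light against the change to darkness. Exact permutation tests were run on the 8 values of single genes. Gene lists were described by counts and medians beside all transcripts, without a test. Members, lists and tests were chosen with earlier results of these data known. Named genes were those past the threshold, the 8 with the smallest p in each direction among transcripts of 1 gene above the median level, all clock genes, the 4 members of lowest p in every list, a few fixed genes (Th, Slc6a3, Cirbp, Fabp7, Slc7a5, Sgk1 and Klf9), those farthest from the other ZT0 arrays in ZT0 replicate 4, and the 4 with the smallest p in the contrast of both changes. Others are named as chosen later. The method was tested on simulated data for ZT0 against ZT20 with 23410 transcripts, of which 200 were changed. Of 50 changed by 0.25 log2 units it recovered 8%, and of 50 changed by 0.5 it recovered 80%. Of 50 changed by 0.75 it recovered 100%, with 7 false calls. The simulated noise was independent between transcripts and had the same spread on every array, with no array apart and no difference in scale. These shares therefore hold for such noise only and not for the measured arrays. The number of arrays limits the precision, and the median SE of a difference was 0.09. Whether the numbers of replicates pair mice was checked. The correlations of same-numbered ZT0 and ZT20 arrays were 0.11, 0.02, 0.10 and 0.08, which did not settle it, and no pairing was assumed. Plots were drawn with matplotlib 3.10.9. CircWave, named in the study's methods, was not used here.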

Additional observations from a re-analysis of the deposited data

Results flagged for a closer look

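Arrays far from the others were counted among 100 probe sets of genes named, without those named as lowest in ZT0 replicate 4. The counts therefore say little of that array. The highest or lowest of 4 arrays stood far from the other 3 in 4 of 100 groups at ZT0 and in 2 of 100 at ZT20. Chance flags about 1 in 20 groups. At ZT0, Hk1 was at 10.41 in replicate 2 (10.85 to 10.91 in the others), Psg23 at 4.84 in replicate 2 (4.58 to 4.62), Tagln at 6.41 in replicate 1 (6.71 to 6.77) and Alas2 at 6.30 in replicate 1 (6.53 to 6.56). At ZT20, Egr1 was at 6.87 in replicate 1 (7.15 to 7.20) and the most abundant probe set of Rpl5 at 9.57 in replicate 4 (9.88 to 9.91).

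The change to light and the change to darkness differed for Sgk1 by -1.05, and for Fabp7 without ZT0 replicate 4 by 1.15, by the contrast of both in limma.

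Of the 12146 probe sets without a gene, which the comparisons leave out, 1 passed an adjusted p under 0.05 within that set. It was lower at ZT0 by -1.05 ± 0.17 (SE), at 4.21, 4.15, 4.03 and 4.21 on the ZT0 arrays, against 5.50, 4.98, 5.31 and 5.03 on the ZT20 arrays (adjusted p 0.0479, limma). Without ZT0 replicate 4 the difference was -1.07 with an adjusted p of 0.171. At an unadjusted p under 0.05 stood 10.9% of these probe sets, and 11.7% without that array.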

How the results depend on the processing

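Results for ZT0 against ZT20 were recomputed with each of 24 arrays left out and under 9 other settings, and those without ZT0 replicate 4 likewise, the latter chosen after seeing the data. The 0 transcripts at an adjusted p under 0.05 became 0 to 17 with an array left out and 9 with array weights, and stayed 0 under the other 8. At an unadjusted p under 0.05, 2094 became 1530 to 3635 with an array left out, 1238 with the ZT0 and ZT20 arrays only, 4346 with array weights, 1090 among transcripts above the median level and 3423 among all probe sets. ZT0 arrays all above gave 266 (266 to 1361 with an array left out, 166 above the median level, 450 among all probe sets), and all below 527 (527 to 1615, 177 and 882). Against the rest of the day, ZT0 gave 1569 (1381 to 2528 with an array left out, 3029 with array weights, 841 above the median level, 2701 among all probe sets) and ZT20 1220 (899 to 1703, 1952, 552 and 1886).

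The 1 transcript in the contrast of both changes became 1 to 3 with an array left out, 2 after further quantile normalization and with robust and trended variances, 9 with array weights, 3 above the median level and 0 among all probe sets. Without ZT0 replicate 4, the 1 transcript for ZT0 against ZT20 became 0 to 479 with another array left out (479 without ZT0 replicate 2), 26 with the ZT0 and ZT20 arrays only, 1171 with array weights, 30 with robust and trended variances, 54 above the median level and 0 among all probe sets, and the 3635 became 2089 to 4688 with another array left out and 2362 above the median level. The contrasts with other time points have no value with the ZT0 and ZT20 arrays only. Filters change the number of transcripts tested, and the cause of the other shifts was not tested.

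With the replicate number as a block, the 0 transcripts stayed 0, whereas without ZT0 replicate 4 the 1 became 0 and the adjusted p of Fabp7 was 0.0543. Whether the numbers pair the mice was not settled. The ZT0 arrays with numbers 1, 3 and 4 correlated best with their own number, though weakly (0.11, 0.098 and 0.083). Number 2 did not (0.024, against 0.211 with ZT20 number 4). The block changed no call with all arrays.

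Of 103 results on single genes, 93 kept their direction throughout. The others lay between -0.06 and 0.04 with all arrays. With an array left out, Per1 ranged from -0.097 to 0.035, Rorb from -0.062 to 0.041, Clock from -0.009 to 0.101, Bhlhe40 from -0.038 to 0.068, Hlf from -0.123 to 0.041, Nr1d1 from -0.021 to 0.060, Slc4a1 from -0.026 to 0.084, Nfil3 from -0.099 to 0.069, Tef from -0.036 to 0.027 and Bhlhe41 from -0.168 to 0.197. Array weights turned Hlf (0.023), Nr1d1 (-0.006), Slc4a1 (-0.006), Nfil3 (0.051) and Bhlhe41 (0.176), centring the medians turned Nfil3 (0.004) and Tef (0.014), and quantile normalization turned Nr1d1 (-0.003). The transcripts named as lowest in ZT0 replicate 4 were not among the 103. Without that array Gsdme went from -0.44 to 0.31 and Ptchd1 from -0.23 to 0.51, each on 1 of its probe sets. Taf1d went from -0.24 to 0.41 on 1 of its own. With 4 arrays a group and a median SE of 0.09, differences of 0.25 were rarely recovered in the simulated data. In the measured data with all arrays, larger differences did not pass either, such as 0.57 for 1 probe set of Rpl5 (adjusted p 0.376, limma).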
